A study of Mus musculus with 8 samples.

Results

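The 720 regions described here were open in mouse embryonic fibroblasts (MEFs), in MEFs at day 5 of reprogramming and in embryonic stem cells (ESCs). These stretches of chromatin carried no peak in the day 10 list. Peaks of the 4 deposited lists that lay at most 400 bp apart were merged into 101701 regions. Of these, 19455 were common regions, with a peak in both the MEF and the ESC list. Among the common regions, 14071 were open on both days, 1478 were missing only at day 5, 3186 were open on neither day and 720 were missing only at day 10. The regions were selected on the measured peaks themselves, so their lack of a day 10 peak is their definition. Of the 14791 common regions with a day 5 peak, 4.87% had no day 10 peak. Of the 15549 common regions with a day 10 peak, 9.51% had no day 5 peak. Over all 36043 regions with a day 5 peak, common or not, 24.7% had no day 10 peak.

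Chromatin was profiled by ATAC-seq, in which a transposase cuts and tags accessible DNA, in 8 libraries from 4 groups of 2. MEFs were uninfected, wildtype for Jmjd3 and labelled strain C57BL/6J-OG2, and by the study's methods they came from E13.5 embryos carrying an Oct4-GFP transgene. The groups at day 5 and day 10 were the same kind of cells infected with pMXs retroviruses for Oct4, Sox2, Klf4 and c-Myc (OSKM), with FLAG as the overexpression control, and then grown in ESC medium with vitamin C. Infected cultures are mixtures of cells at different stages. ESCs were uninfected and wildtype, with library 1 labelled C57Bl6J and library 2 C57BL/6J-OG2. The labels place ESCs on mitomycin-treated feeder MEFs, while the methods describe ESCs for ATAC-seq on gelatin in 2i/L medium. Each group was deposited as 1 intersected list for both libraries. Every value below therefore has no replicate spread, and the number of reads per library is unknown. A region without a day 10 peak may still have had one in a single library, so it was not shown to be closed.

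The MEF list held 56514 peaks, the day 5 list 36219, the day 10 list 35226 and the ESC list 48486. Peaks lay within 5 kb of a start site of 6 of 6 MEF marker genes in the MEF list, of 5 on each OSKM day and of 4 in the ESC list. Of 7 ESC marker genes, all 7 had such a peak in the ESC list, 4 in the MEF list and 3 on each OSKM day. Thy1, a surface marker of fibroblasts, had 3 peaks in the MEF list and none in the other lists, and the pluripotency gene Zfp42 had a peak only in the ESC list.

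Open chromatin marks promoters, enhancers and insulators, the DNA elements at which transcription factors displace nucleosomes. Sites open in both fibroblasts and stem cells are largely the promoters of genes that most cells use, together with sites bound by CTCF, the protein that anchors chromatin loops. AP-1 and TEAD proteins bind fibroblast enhancers, and KLF4, one of the reprogramming factors, binds GC-rich elements of the kind that SP proteins also bind.

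The windows below show the factor sites that the comparisons turn on, as they stand in the highest-ranking of the 720 regions outside exons. Each is 200 bp of the mm10 (GRCm38) plus strand at the midpoint of the MEF peak, taken from RefSeq's GRCm38.p6 sequence, and capitals mark the motif match on either strand.
AP-1, nearest start site Vps45, chr3:96069855-96070054, plus strand: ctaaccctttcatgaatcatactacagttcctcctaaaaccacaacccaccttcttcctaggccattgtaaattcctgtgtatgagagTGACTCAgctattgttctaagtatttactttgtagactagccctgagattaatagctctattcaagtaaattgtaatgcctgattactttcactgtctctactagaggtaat
AP-1, nearest start site Gm8817, chrX:167049659-167049858, plus strand: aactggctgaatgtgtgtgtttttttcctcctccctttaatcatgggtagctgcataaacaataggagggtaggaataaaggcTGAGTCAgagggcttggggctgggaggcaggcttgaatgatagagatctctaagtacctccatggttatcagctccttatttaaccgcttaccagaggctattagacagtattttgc
AP-1, nearest start site Rpl35a-ps4, chr2:108827556-108827755, plus strand: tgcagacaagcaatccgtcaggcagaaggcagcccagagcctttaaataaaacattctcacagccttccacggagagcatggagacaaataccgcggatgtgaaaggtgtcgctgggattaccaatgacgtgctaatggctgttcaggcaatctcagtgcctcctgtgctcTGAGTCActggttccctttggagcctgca
CTCF, nearest start site Xkr5, chr8:18954008-18954207, plus strand: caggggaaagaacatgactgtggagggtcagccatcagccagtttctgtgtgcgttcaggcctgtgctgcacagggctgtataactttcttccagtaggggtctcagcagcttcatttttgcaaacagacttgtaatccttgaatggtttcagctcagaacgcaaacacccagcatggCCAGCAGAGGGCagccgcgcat
CTCF, nearest start site Opn5, chr17:42613074-42613273, plus strand: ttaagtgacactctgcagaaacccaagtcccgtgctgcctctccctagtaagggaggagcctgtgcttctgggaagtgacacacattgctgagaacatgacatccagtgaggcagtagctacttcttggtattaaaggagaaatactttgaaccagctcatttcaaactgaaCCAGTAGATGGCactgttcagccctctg
TEAD, nearest start site Bcat1, chr6:145023248-145023447, plus strand: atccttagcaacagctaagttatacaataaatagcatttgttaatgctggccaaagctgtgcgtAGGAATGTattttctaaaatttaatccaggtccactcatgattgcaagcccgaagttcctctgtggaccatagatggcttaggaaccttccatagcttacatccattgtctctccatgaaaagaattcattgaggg
TEAD, nearest start site Serpinb6b, chr13:32964484-32964683, plus strand: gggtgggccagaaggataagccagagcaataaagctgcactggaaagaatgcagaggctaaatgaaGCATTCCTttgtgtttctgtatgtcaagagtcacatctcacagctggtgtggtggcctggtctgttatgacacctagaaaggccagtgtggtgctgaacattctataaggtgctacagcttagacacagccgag
KLF, nearest start site Gm7482, chr7:63802913-63803112, plus strand: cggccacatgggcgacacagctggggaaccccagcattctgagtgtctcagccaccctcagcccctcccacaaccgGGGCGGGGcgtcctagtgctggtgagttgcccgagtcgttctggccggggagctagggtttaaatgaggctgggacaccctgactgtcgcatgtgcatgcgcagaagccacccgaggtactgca
The first AP-1 window, in an intergenic region, had a −log10 q of 7.30 in the MEF list, 5.14 in the day 5 list and 5.01 in the ESC list. The TEAD window in an intron of Bcat1, which encodes a branched-chain aminotransferase, had 16.1, 4.02 and 8.23 in the same lists. The CTCF window near Opn5, an opsin gene, had 5.51, 5.83 and 3.11, so its day 5 value was the highest. The capitals of the KLF window near Gm7482 are the letters of the SP GC box, which is also 1 of the KLF forms read on the other strand.

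The −log10 q is the authors' measure of how far a peak stood above background, so higher values mean stronger peaks, and every list ended just above 1. In the 720 regions the median −log10 q was 3.77 in the MEF list (quartiles 2.62 and 5.68), 2.63 in the day 5 list (1.99 and 3.55) and 3.69 in the ESC list (2.49 and 5.55). Common regions open on both days had medians of 10.9, 6.06 and 5.84 in the same lists. The regions missing only at day 10 were thus weaker in all 3 lists. Their lowest median was that of day 5. Regions missing only at day 5 were weak too, with medians of 3.99 in the MEF list and 3.33 in the ESC list. Their own lowest median, 2.76, was that of day 10. Since the same peak calls chose the regions, these values are a description and were not tested. For the 720 regions the median fold enrichment at day 5 was 3.23, against 3.87 in regions open on both days. The median width of their day 5 peak, as it stands in the intersected list, was 390.5 bp against 814 bp. The narrowest were 17 bp and 4 bp, so these widths may be those of parts of called peaks. The whole merged region had a median width of 905 bp, against 1335 bp.

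**Figure D1:**
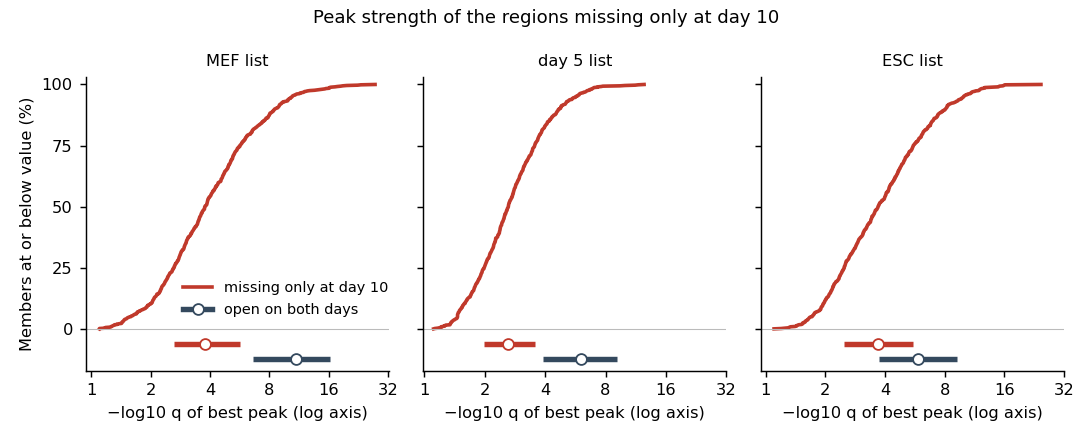
Cumulative share of the 720 regions (vertical, %) by the −log10 q of their best peak (horizontal, log axis) in the MEF, day 5 and ESC lists. Below each curve, a bar spans the quartiles and a circle marks the median for these regions and for the 14071 regions open on both days, and the 720 regions lie lower in all 3 lists, with the day 5 curve steepest.

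The regions did not have to be weak everywhere. In the MEF list 262 of them (36.4%) ranked in the upper 50% of peaks, in the ESC list 339 (47.1%) and in the day 5 list 79 (11%). Only 28 (3.89%) ranked in the upper 50% of all 3 lists. The day 5 peak was the weakest of the 3 in 402 regions (55.8%), the MEF peak in 154 (21.4%) and the ESC peak in 164 (22.8%). Here and at single regions, raw values were compared across lists that may differ in scale. Regions open on both days already had medians of 10.9 in the MEF list, 6.06 at day 5 and 5.84 in the ESC list. The same ranking was not made for the other classes. A −log10 q of at least 2 in all 3 lists was reached by 436 of the 720 regions (60.6%).

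The share of common regions without a day 10 peak fell with the strength of the day 5 peak. The regions were put in 10 groups of equal size by day 5 −log10 q. In the weakest group it was 22.2% (Wilson 95% interval 20.2 to 24.4, n = 1480), in the next 12% and in the third 6.63%. It was 2.03% in the fifth group and 0.473% in the seventh. None of the 1479 regions in the strongest group lacked a day 10 peak, which allows a share of up to 0.259% by the Wilson interval. In the opposite loss, 41.9% of common regions in the weakest group by day 10 strength had no day 5 peak, 27% in the next, 1.09% in the sixth, and 0 in the ninth and the strongest group. The day 5 loss was the higher one in the weakest groups, while in the sixth group 1.35% had no day 10 peak. All intervals cover counting error over regions only. Strength groups and missing peaks came from the same peak calls that chose the regions, so these shares are a description. The part that strength or read depth had in the missing peaks was not tested.

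**Figure D2:**
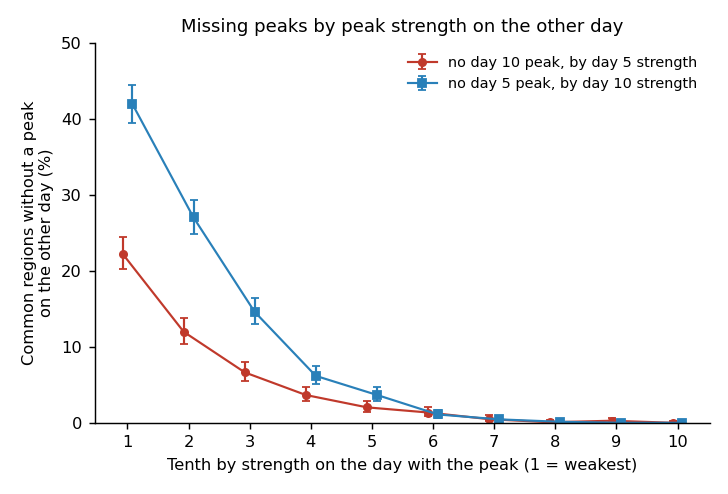
Share of common regions without a peak on one OSKM day (vertical, %) in 10 equal groups by peak strength on the other day (horizontal, 1 is weakest), with Wilson 95% intervals. Regions without a day 10 peak fell from 22.2% in the weakest group of day 5 peaks to 0 in the strongest.

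By the rule no day 10 peak lay within the merging distance of 400 bp. The nearest day 10 peak lay at a median distance of 24.4 kb (quartiles 8.82 and 59.1 kb). It was within 5 kb of 92 regions (12.8%), within 10 kb of 203 (28.2%) and within 50 kb of 511 (71.0%). Regions missing only at day 5 lay a median of 16.9 kb from a day 5 peak, with 12.7% within 5 kb. Just outside the merging distance, no region lay within a further 400 bp of a day 10 peak, and the closest gaps were 938, 1055 and 1346 bp. The region at 938 bp lay in Pycard, which encodes an inflammasome adaptor, that at 1055 bp in an intron of Tsc22d3, a glucocorticoid-induced gene, and that at 1346 bp closest to Trim2, a ubiquitin ligase gene. Just inside it, 2 of the regions called open on both days were held together only by a gap, the wider being 163 bp. The farthest day 10 peak was 1761 kb away, from a region over a start site of Ptprd, a receptor tyrosine phosphatase gene.

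The regions were spread over the chromosomes. The share of common regions with a day 5 peak that had no day 10 peak ran from 3.30% (15 of 454, Wilson 95% interval 2.01 to 5.38) on chromosome 19 to 6.88% (55 of 799, 5.33 to 8.85) on chromosome 6, and was 3.73% on the X chromosome. The Y chromosome had 0 of 6.

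Most of the 720 regions lay away from promoters. A start site annotated by GENCODE was within 1 kb of 260 of them (36.1%, Wilson 95% interval 32.7 to 39.7), against 80.7% of regions open on both days. The difference was -44.6 percentage points (Newcombe 95% interval -48.1 to -41.0). Weighting the other set to the same distribution of MEF peak strength, in 10 bins, left a difference of -21.2 points (-25.1 to -17.4), and weighting by day 5 strength left -33.9 (-37.7 to -30.1). Against the 1478 regions missing only at day 5, of which 45.7% lay within 1 kb, the difference was -9.63 points (-13.9 to -5.25). Regions open on neither day were within 1 kb in 26.7%. A start site lay inside 213 regions (29.6%) and a start site of a protein-coding transcript inside 171 (23.8%), against 78.4% and 73.5% of the regions open on both days. The median distance to a start site was 4809 bp, and 46 regions (6.39%) lay beyond 50 kb.

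**Figure D3:**
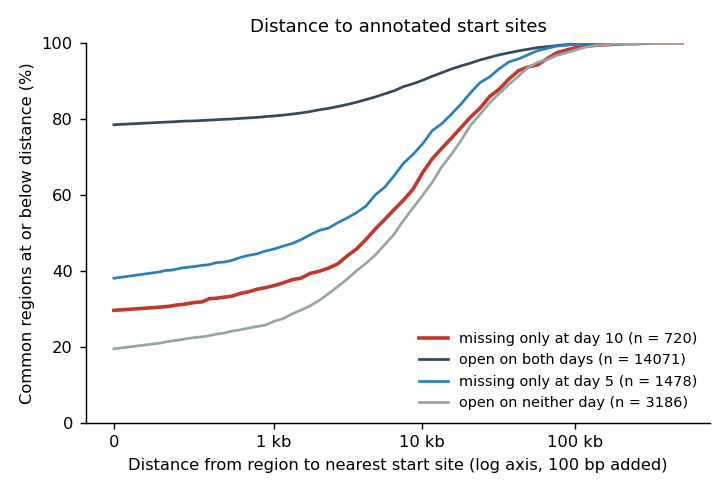
Cumulative share of common regions (vertical, %) by distance to the nearest annotated start site (horizontal, log axis) for the 4 classes of common regions. Regions missing only at day 10 start at 29.6% with a start site inside, between regions missing only at day 5 (38.0%) and open on neither day (19.5%), and well under regions open on both days (78.4%).

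By the midpoint of the MEF peak, 157 regions (21.8%) were exonic, 270 (37.5%) intronic and 293 (40.7%, Wilson 95% interval 37.2 to 44.3) intergenic. Regions open on both days were intergenic in 23.2% (22.5 to 23.9). Among regions more than 1 kb from a start site the intergenic shares were 53.3% (48.7 to 57.8) and 52.8% (50.9 to 54.6), and these intervals overlapped. For the 390 regions inside a protein-coding gene, the median length of that gene, or of the longest where genes overlapped, was 80.8 kb. For regions open on both days it was 36.4 kb. The gene was over 200 kb for 26.9% of these 390 regions, against 11.9%. Away from start sites those last shares were 32.1% and 32.4%. The annotation put 2 of the regions in each of 21 genes, among them the synaptic genes Cadps and Grik2, the neuronal adhesion gene Cntnap2 (2245 kb) and the phosphodiesterase gene Pde4d (1504 kb). Cadps, Grik2 and Cntnap2 held 0 regions open on both days, and Pde4d held 10. Mef2b, Pkhd1, Rapgef5 and Rbms3 also held 0, and Lif, Pstpip1 and Tub held 1. The genes named are examples, and no class of genes was tested.

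The sequence under the regions was poorer in GC and CpG. A window was called CpG-rich at a GC content of at least 55% and an observed over expected CpG ratio of at least 0.65. This held for 124 of the 720 regions (17.2%), against 54.5% of regions open on both days, a difference of -37.3 points (-40.0 to -34.2). Weighted to the same MEF strength and the same position within or beyond 1 kb of a start site, the difference was -5.17 points (-8.13 to -2.22), and by day 5 strength -9.07 (-12.1 to -6.05). The mean GC content was 52.7%, against 61.8%, a difference of -9.10 points (-9.94 to -8.27) that shrank to -1.82 (-2.70 to -0.95) and -2.86 (-3.73 to -1.98) under these weightings. Even among regions within 1 kb of a start site, 40.8% were CpG-rich, against 64.9% (difference -24.1, -30.0 to -18.0). Regions missing only at day 5 had 40.4% there (difference 0.38, -6.52 to 7.46), and their GC content within 1 kb differed by 0.09 points (-1.51 to 1.69). Beyond 1 kb the GC difference from them was -2.97 points (-3.87 to -2.07) and the CpG-rich difference -2.07 (-4.42 to 0.55).

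Repeats took a slightly larger part of the windows. The mean repeat-masked share was 11.6%, against 7.27% in regions open on both days, a difference of 4.29 points (2.94 to 5.65). It was 0.86 points (-0.60 to 2.31) at equal MEF strength and position, an interval that included 0. Against regions missing only at day 5, the GC content differed by -2.75 points (-3.71 to -1.79), the CpG-rich share by -4.50 (-7.87 to -0.93) and the repeat share by 2.18 (0.65 to 3.71). At equal MEF strength and position the CpG-rich difference was -0.92 (-4.17 to 2.33). The GC difference there was -1.82 (-2.74 to -0.89) and the repeat difference 2.03 (0.48 to 3.58), and both intervals left out 0. Split by distance, the repeat difference was 0.26 (-1.83 to 2.35) within 1 kb of a start site and 2.97 (0.87 to 5.07) beyond it.

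For 16 motifs, a window counted once if it held the letters on either strand. Calls required an interval widened for all 32 differences to leave out 0, while the intervals printed are plain 95%. Calls after weighting or within a split by distance used the same widening, which did not count those further comparisons. Against regions open on both days 7 motifs were called, 3 more frequent and 4 less frequent in the 720 regions. At plain 95% it was 11. A match is only the presence of the letters.

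The more frequent ones were AP-1, TEAD and CTCF. AP-1 (TGACTCA or TGAGTCA) was in 54 regions (7.50%), against 3.20%, a difference of 4.30 points (2.57 to 6.48). Over the windows of all 101701 regions its share was 11.7%. With the window at the best ESC peak the difference was 1.62 points (0.35 to 3.35) and was not called. AP-1 was in 1.54% against 1.73% within 1 kb of a start site (difference -0.20, -1.17 to 2.16) and in 10.9% against 9.33% beyond it (1.54, -1.24 to 4.88), and neither was called. TEAD (ACATTCCA, ACATTCCT, GCATTCCA or GCATTCCT) was in 37 (5.14%), against 2.52% (difference 2.62, 1.21 to 4.50), with 6.90% over all regions. CTCF, searched by its core consensus, was in 39 (5.42%), against 1.15% (difference 4.27, 2.82 to 6.17), with 1.15% over all regions. Of the 39 CTCF regions 31 lay beyond 1 kb of a start site, 1 also held AP-1, and their median −log10 q was 3.71 in the MEF list, 2.47 in the day 5 list and 3.01 in the ESC list. At equal MEF strength and position the differences were 2.14 points (0.07 to 4.21) for AP-1, 0.38 (-1.40 to 2.17) for TEAD and 1.55 (-0.25 to 3.36) for CTCF, and none was called. Within 1 kb of a start site, however, CTCF was in 8 of 260 regions (3.08%), against 0.40% of regions open on both days. This difference (2.67, 1.16 to 5.55) was called. Regions missing only at day 5 had 2.51% there (difference 0.56, -1.55 to 3.59). Beyond 1 kb CTCF was in 6.74%, against 4.28% of regions open on both days (difference 2.46, 0.34 to 5.22), which was not called.

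The less frequent motifs against regions open on both days were KLF, the SP GC box, ETS and NRF1, and for each the share in the 720 regions was closer to that of all regions. KLF (CCACACCC, CCACGCCC, CCCCACCC or CCCCGCCC) was in 82 regions (11.4%), against 23.6%, a difference of -12.3 points (-14.5 to -9.63), and in 11% of all regions. The SP GC box (GGGCGGGG), whose reverse complement is the last KLF form, was in 32 (4.44%), against 13.7% (difference -9.23, -10.6 to -7.38), and in 3.33% of all regions. The ETS site (CCGGAAGC or CCGGAAGT) was in 6 (0.833%), against 4.86% (difference -4.03, -4.61 to -3.00), and in 1.16% of all regions. NRF1, a regulator of housekeeping promoters searched by its consensus, was in 2 (0.278%), against 1.93% (difference -1.65, -1.96 to -0.89), and in 0.357% of all regions. The NRF1 call was lost without chromosomes X and Y (-1.66, -1.98 to -0.88), at a merging distance of 0 bp (-1.65, -1.97 to -0.86) and with the window at the widest peak (-1.63, -1.95 to -0.87). Under the weighting by MEF strength and position ETS differed by -0.71 points (-1.44 to 0.03) and NRF1 by -0.54 (-1.01 to -0.07), neither called. In regions open on neither day, KLF was in 9.86%, the SP GC box in 2.61%, ETS in 0.816% and NRF1 in 0.188%.

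Only KLF was called less frequent under both weightings. Its difference was -6.20 points (-8.83 to -3.58) at equal MEF strength and position and -5.76 (-8.42 to -3.11) at equal day 5 strength and position. Beyond 1 kb of a start site KLF was in 7.17% of 460 regions, against 15.5% of regions open on both days (difference -8.35, -10.8 to -5.32). There the SP GC box was in 1.30%, against 4.76% (difference -3.45, -4.57 to -1.77). Within 1 kb KLF was in 18.8% against 25.6% (difference -6.74, -11.1 to -1.48) and the SP GC box in 10.0% against 15.8% (-5.80, -8.96 to -1.50), and neither was called. The E-box of MYC (CACGTG) was in 17 regions (2.36%), against 4.78%, a difference of -2.41 points (-3.37 to -0.99) that was not called, while -2.19 (-3.51 to -0.86) at equal MEF strength and position was. It was in 2.96% of all regions.

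**Figure D4:**
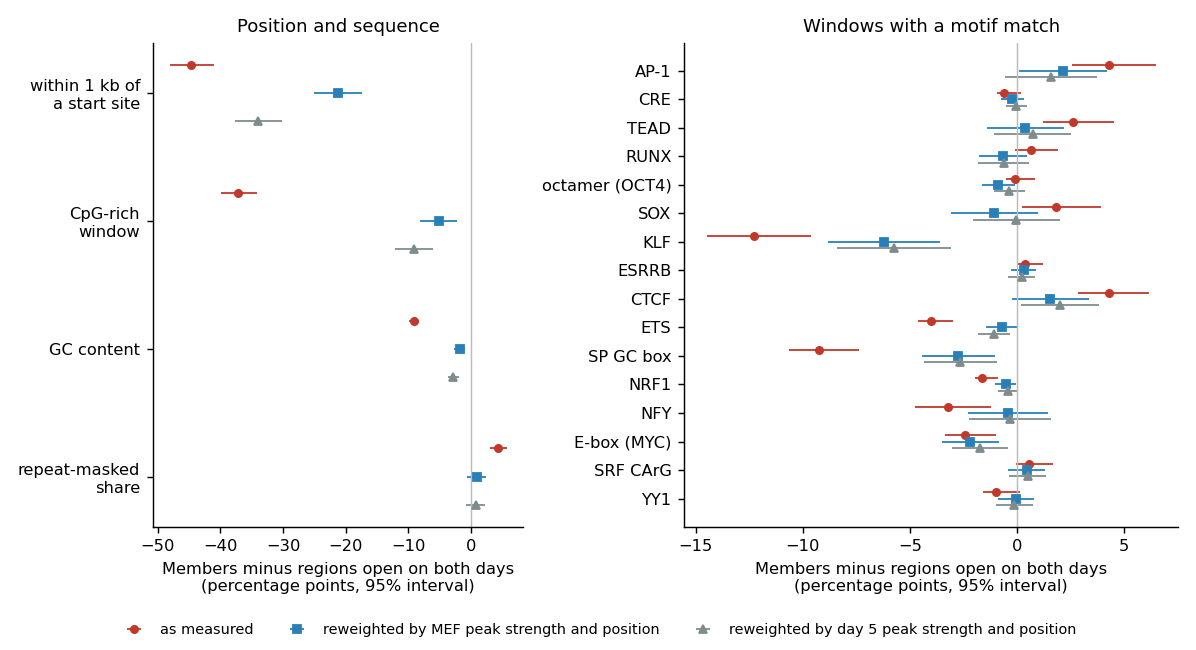
Difference between the 720 regions and regions open on both days (horizontal, percentage points, 95% intervals) in position and sequence (left) and in the share of windows with each of 16 motifs (right), as measured and after weighting the other set to the same peak strength and position. Weighting moved most differences towards 0, while KLF stayed at -6.20 points by MEF strength and -5.76 by day 5 strength.

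For the other motifs called in no case as measured, the shares in the 720 regions, in regions open on both days and in all regions were as follows. SOX (CCATTGT or CCTTTGT) had 6.53%, 4.70% and 10.0%. NFY (CCAATCA or CCAATCG or CCAATGA or CCAATGG) had 5.69%, 8.91% and 6.99%. RUNX (TGTGGTTA or TGTGGTTT) had 1.81%, 1.15% and 3.14%. The octamer of OCT4 (ATGCAAAT) was in 5 regions, or 0.694%, against 0.77% and 2.15%. The SRF CArG box had 1.25%, 0.696% and 1.02%. YY1 (AAGATGGC) had 1.11%, 2.09% and 1.16%. ESRRB (TCAAGGTCA) had 0.556%, 0.199% and 0.666%. CRE (TGACGTCA) had 0.417%, 1.03% and 0.319%. With some other windows SOX, NFY and RUNX were called, as given at the end. At least 1 of the 16 motifs was in 287 of the 720 regions (39.9%, Wilson 95% interval 36.3 to 43.5), in 47.6% (46.7 to 48.4) of regions open on both days, in 46.2% (43.7 to 48.8) of those missing only at day 5 and in 45.5% (43.8 to 47.3) of those open on neither day.

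Against regions missing only at day 5, no motif was called, and 2 of 16 intervals left out 0 at plain 95%. These were KLF (11.4% against 15.1%, difference -3.70, -6.55 to -0.63) and the E-box (2.36% against 5.01%, difference -2.65, -4.16 to -0.94). AP-1 differed by 0.80 points (-1.40 to 3.25), TEAD by -0.34 (-2.23 to 1.80) and CTCF by 0.61 (-1.26 to 2.75), so differences of a few points in either direction lay within these intervals.

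The strongest of the 720 regions, ranked by the lowest −log10 q over their 3 lists, lay mostly away from start sites. First was an intergenic region of 696 bp on chromosome 4 (59932738 to 59933433), 17682 bp from a start site of Slc46a2, a solute carrier gene of thymic stroma. Its −log10 q was 8.53 in the MEF list, 11.2 in the day 5 list and 16.1 in the ESC list, higher than 73.5%, 90.7% and 97.5% of the peaks of these lists, and the nearest day 10 peak was 24620 bp away. The second lay near H2-M10.6, a non-classical class I histocompatibility gene, with 8.94, 11.6 and 7.76 and a day 10 peak 1390 bp away. Their day 5 peaks ranked above 90.7% and 91.6% of that list.

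The next were inside genes. An intronic region of Astn1, which guides neuronal migration, had 6.72, 6.49 and 7.02 in the MEF, day 5 and ESC lists. A region in Pctp, which encodes a phosphatidylcholine transfer protein, had 8.30, 9.44 and 6.25. In App, the amyloid precursor protein gene, an exonic midpoint 7486 bp from a start site had 6.16, 6.93 and 9.51 and a KLF match. A region in Rbms2, an RNA-binding protein gene, had 5.98, 7.61 and 8.61, and 92% of its window was repeat-masked. The day 5 peak was the highest of the 3 in Pctp, the lowest in Astn1 and between the others in App and Rbms2.

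Among the rest of the 12 strongest, a region over a start site of Cenpt, which encodes an inner kinetochore protein, had 8.02, 5.92 and 10.9, with a day 10 peak 2531 bp away. A region over a start site of Grik2, a kainate receptor subunit gene, had 8.04, 5.89 and 15.1, and no day 10 peak within 370598 bp. Another member lay over a further start site of Grik2, with 5.83, 2.02 and 2.63. Start sites also lay inside the regions at Ermard (9.93, 5.81 and 5.87) and at Pde4b, a cyclic AMP phosphodiesterase gene (8.86, 5.79 and 6.15). The other two lay nearest to the antisense gene Gm9934 (6.42, 5.93 and 9.67) and to the processed pseudogene Gm8643 (6.26, 7.02 and 5.87), the second 147033 bp from a start site with 66.5% of its window repeat-masked.

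Below these 12, the 8 strongest regions over a start site lay at Ido2, Dhx9, Zkscan8, Dsc2, Ap3b2, Ccdc3, Galnt17 and Fgf12. Ido2, a tryptophan-degrading enzyme gene, had 10.5, 5.27 and 5.44, and Dhx9, an RNA helicase gene, 7.66, 5.23 and 7.30. Dsc2, a desmosomal cadherin gene of epithelia, had 4.94, 4.78 and 4.42, with its window at 65.5% GC. Ap3b2, a neuronal adaptor subunit gene, had 4.39, 6.88 and 8.50 with a KLF and an SP GC box match. The window at Ccdc3 had the highest GC content of the 8, at 82.5%, with 4.98, 4.35 and 6.46. Galnt17, a glycosyltransferase gene, had 10.0, 4.22 and 8.45, and Fgf12, an intracellular fibroblast growth factor homologue, 4.14, 4.60 and 5.93. The zinc finger gene Zkscan8 had 5.31, 4.64 and 8.01 with an E-box match. Nearest day 10 peaks lay 5281 bp (Dhx9) to 61580 bp (Ccdc3) away.

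**Figure D5:**
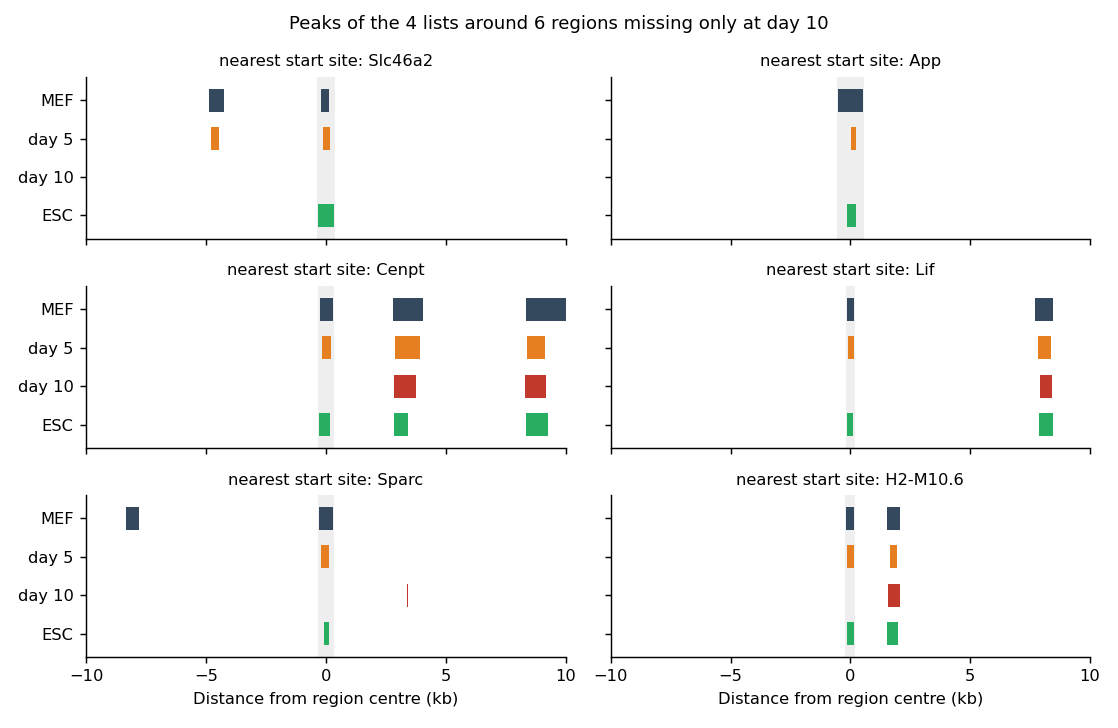
Peaks of the 4 lists (rows, bars to scale) within 10 kb of the centre (horizontal, kb) of 6 of the 720 regions, shaded, named by the nearest start site and chosen after their values were seen. The day 10 row is empty in every shaded region, while day 10 peaks stand nearby at Cenpt (2531 bp), H2-M10.6 (1390 bp), Sparc (3085 bp) and Lif (7758 bp).

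Few genes of the lists examined lay next to the regions. Of 285 genes in 17 lists (among them pluripotency, epithelial, extracellular matrix, actin cytoskeleton, TGF-beta, Wnt, FGF and ERK, AP-1, TEAD and YAP, Polycomb and H3K27 demethylases, DNA methylation, cell cycle and ribosomal proteins), 2 (0.702%) were nearest to one of the regions within 50 kb. Over all 21924 protein-coding genes it was 409 (1.87%). Both were single genes of their list, 1 of 20 in extracellular matrix and 1 of 11 in LIF and STAT3, and 15 lists had none.

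These genes were Lif and Sparc. Lif encodes the cytokine that keeps mouse ESCs undifferentiated. Its intronic region of 322 bp, 1153 bp from a start site, had a −log10 q of 5.09 in the MEF list, 4.53 in the day 5 list and 3.39 in the ESC list, with a KLF match. A second region in the annotated body of Lif lay nearest to Gm11959 and had 1.26, 3.10 and 4.84. Sparc encodes a matrix glycoprotein made by fibroblasts. An intergenic region 12672 bp from its start site had 8.17, 2.95 and 2.55, so it was strong in MEFs and weak in both other lists, with an NFY match.

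The regions seldom clustered at a gene. The 720 regions had 707 distinct nearest genes, of which 695 were nearest to 1 region, 11 to 2 and 1 to 3. For 432 regions (60%) the nearest gene was protein coding. The gene with 3 was Cntnap2, which encodes a neurexin-like adhesion protein of axons. Its intronic regions had 4.63, 2.56 and 3.21, and 5.75, 1.76 and 2.88, in the MEF, day 5 and ESC lists, the second with a CTCF match. The intergenic one had 2.08, 5.04 and 4.95. The day 5 value was the lowest in the intronic pair and the highest in the intergenic region.

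The extremes of single lists were other regions. The highest MEF value was 27.5, 93015 bp from a start site of Gm26436, where the day 5 value was 1.79 and the ESC value 8.03. The highest day 5 value was 12.4, over a start site of Scn9a, a voltage-gated sodium channel gene of sensory neurons, with 2.44 in the MEF list and 9.30 in the ESC list. These regions were chosen after their values were seen.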

How the data were processed

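ATAC-seq was available for 8 mouse libraries in 4 groups, taken from the sample titles. The authors mapped reads to mm10 with bowtie2 (version 2.2.0 in the submitters' processing notes) in its very sensitive mode, filtered them by mapping quality, kept unique reads and removed mitochondrial ones. The peak caller is not given in the sources used here. The authors deposited 1 intersected peak list per group, whose peak names come from replicate 1. The deposited columns were peak coordinates, a score (10 times the −log10 q without decimals), a fold enrichment (a ratio over background), a −log10 p-value and a −log10 q-value. The score, fold and −log10 q may describe the whole replicate 1 peak, and lengths of lists can follow read depth, which the lists do not give. There were 0 columns of other series.

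Regions, windows and start sites (GENCODE mouse release 21, on the RefSeq GRCm38.p6 sequence) were handled in Python 3.11.15 with numpy 2.4.6, pandas 2.3.3 and pysam 0.24.0, and figures in matplotlib 3.10.9. Within a region, the peak with the highest −log10 q stood for its list. Windows were 200 bp at the midpoint of that MEF peak, or of the widest peak where a region of the all-regions background had no MEF peak. Shares carry Wilson 95% intervals, differences of shares Newcombe 95% intervals and differences of means normal 95% intervals. No p-value was computed from them. Merging, intervals and weighting were tested on simulated data. Intervals treat regions as independent and say nothing of variation between libraries.

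Named regions were the 12 with the highest minimum −log10 q over the 3 lists, the 8 next highest holding a start site, genes of 17 lists nearest to a region and within 50 kb, and genes nearest to 3 or more regions. The regions, gene lists and motifs were chosen with earlier results of these data known. Alternatives were the merging distance, the peak threshold, the overlap, chromosomes X and Y, the window, the start-site set and weighting by peak strength and position. Weighting by day 5 strength was added after seeing the data.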

Additional observations from a re-analysis of the deposited data

How the results depend on the processing

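The number of regions was 720 as reported, 436 when the MEF, day 5 and ESC peaks needed a −log10 q of at least 2 and the day 10 list stayed whole, and 294 in the higher-scoring 50% of each list. The last setting also shortened the day 10 list. The 6 other settings gave 584 to 767. The repeat-masked difference from regions open on both days was 0.86 points by MEF strength and position and 0.74 by day 5 strength and position, and neither left out 0. The CpG-rich difference from regions missing only at day 5 was -0.92 points by MEF strength and position. The number of motifs called against regions open on both days was 7 as reported, 3 by MEF strength and position, 1 by day 5 strength and position (KLF) and 11 in windows of 400 bp. Against regions missing only at day 5 it was 0 as reported, 2 at a −log10 q of at least 2 in all lists (KLF and the SP GC box) and 1 in windows of 400 bp (KLF). In all, 65 of 75 values of main comparisons, the reported ones not counted, kept their direction and call or stayed within 1.5 times. No called difference changed sign. Of 240 values for single motifs, 22 changed sign, none of them called as reported or in that setting, among them SOX (1.83 points as reported, -1.07 by MEF strength and position), RUNX (0.65 and -0.67) and, against regions missing only at day 5, AP-1 (0.80 as reported, -0.64 with the window at the best ESC peak). In 12 of the 240 a motif not called as reported was called in the same direction. Against regions open on both days, SOX was called at the best ESC peak (3.77 points, 1.91 to 6.05). It was also called at the widest peak (3.44, 1.59 to 5.71) and in 400 bp windows (3.93, 1.60 to 6.64). RUNX (1.45 and 2.32) and NFY (-4.50 and -6.83) were called at the best ESC peak and in 400 bp windows.

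No paired analysis was possible because the libraries numbered 1 and 2 share 1 list per group. For the same reason leaving out each replicate was not run, and replicate error was not measured. The lists give no read depth, and the part of depth in which regions were missing at day 10 was not tested.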
